A study of Mus musculus with 12 samples.

Results

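The 10 genes described here, Cd44, Cd24a, Prom1, Epcam, Alcam, Itga6, Itgb1, Itgb4, Lgr4 and Bmi1, have been used to mark or sort stem-like and tumour-initiating cells of the intestinal epithelium. They were taken by gene name and are 10 of the 30139 genes or transcripts named on the array, with 17 of its 39429 probes. RNA from large-intestinal tissue was hybridised to 12 single-colour Agilent arrays. Wild-type normal tissue came from 4 mice, and normal tissue and polyps came from 4 further mice that carried 1 Apc Δ716 allele (Apc+/Δ716), so that each polyp array has a normal array of the same mouse. The 3 groups are called by genotype and tissue: wild-type normal, then Apc normal, then Apc polyp. All mice were female, of strain C57BL/6N and 14 weeks old. The mutant allele is in the germline, so Apc normal tissue carries it too, and how many polyps made up a sample is not stated in the labels. The labels name no sorting of cells, so the values are read as those of whole tissue.

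CD44 is a receptor for hyaluronan and osteopontin, and the Wnt pathway, which loss of Apc turns on, is known to drive its gene in the intestine. CD24, prominin-1, EpCAM and ALCAM are surface proteins of epithelial and other cells, the integrins α6, β1 and β4 bind laminin in the basement membrane, LGR4 is a receptor for R-spondins that amplifies Wnt signalling, and Bmi1 encodes a nuclear subunit of Polycomb repressive complex 1. Bmi1 is thus no surface protein, although it is used as a stem cell marker in the intestine, and most of the other genes are also active in cells outside the stem cell compartment.

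The probes decide what part of a transcript was measured, and they matter most for Cd44, whose central exons are alternatively spliced, and for Itga6. Coordinates are those of the scanner files, in mouse build mm9, and sequences are the probes' own, 5′ to 3′. Probes whose coding position was not clear are given by their first 30 bases. The 4 Cd44 probes lie on the minus strand. The probe used for the gene, near the 3′ end, is at chr2:102651398-102651457, and the next, which spans the end of the coding sequence, is at chr2:102654278-102654337. The other 2, at chr2:102672645-102672704 and chr2:102677971-102678030, lie in the variable-exon part of the gene, and their 60 bases are shown whole because their values are compared with the distal probe further on. The 2 Itga6 probes, on the plus strand at chr2:71694756-71694815 and chr2:71690633-71690692, are assigned by the file to different transcripts of the gene.
Cd44, distal probe used for the gene, first 30 bases: tcagaggcagctggcatcctttgttttgtt
Cd44, end of the coding sequence, first 30 bases: gacgagacccggaatctgcagagtgtggac
Cd44, variable region, 3′ probe: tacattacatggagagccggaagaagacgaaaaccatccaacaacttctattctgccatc
Cd44, variable region, 5′ probe: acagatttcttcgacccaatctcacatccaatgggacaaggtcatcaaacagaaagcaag
Itga6, probe used for the gene, first 30 bases: gagaatgagaacctgggaggtcttgttgtt
Itga6, other probe, first 30 bases: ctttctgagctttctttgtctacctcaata

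Each level below is the log2 of a probe's processed signal minus the 75th percentile of its array, so 1 unit is a factor of 2 and 0 is the level that 75% of probes lie below. Levels of different probes are not comparable with each other, and only differences of 1 probe between arrays are read. Differences are log2 differences with the standard error of the limma fit, called at a Benjamini-Hochberg adjusted p under 0.05 over the 20084 genes tested. All 10 genes were well above background on all 12 arrays. In whole tissue, fewer cells of a type and less RNA per cell cannot be told apart.

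Facts of all the arrays bear on each of these values. Between 64.6% and 73.8% of spots were well above background and none was saturated. Polyps and Apc normal tissue differed at 45.5% of all genes tested, 20.5% higher and 24.9% lower in polyps, whereas Apc normal and wild-type normal tissue differed at 0.169%. The tissue label was met by the epithelial markers, all 11 of which were above background, with a mean level per array of 4.72 to 5.15 in Apc normal tissue and 4.47 to 4.83 in polyps. In polyps 1 of the 11 epithelial markers was higher and 7 were lower than in Apc normal tissue (median difference -0.65; with quantile normalization or normexp 2 were higher and 4 lower, median -0.28), all 10 smooth muscle markers were lower (median -3.62), 8 of 10 nerve and glia markers were lower, and 4 of 9 neutrophil markers were higher. Of the other markers tested, 2 of 10 pan-leukocyte and macrophage and 2 of 7 T and NK cell markers were higher, some B and plasma cell markers (4 of 10) were lower, 2 of 10 fibroblast and matrix markers were higher and 3 lower, 1 of 10 endothelial markers was higher and 1 lower, and 0 of 4 red blood cell markers passed. The small counts moved when 1 array was left out. Without the polyp array of mouse 110, 3 of 4 red blood cell markers were higher, and 0 pan-leukocyte and macrophage markers were higher without it, without the polyps of mice 106 or 107, or without the normal tissue of mice 103 or 107. 1 fewer T and NK cell, fibroblast or endothelial marker was called in most omissions. The mean smooth muscle marker level per array was 2.73 to 3.26 in Apc normal tissue and -1.41 to -0.03 in polyps. The part that this difference in cell makeup has in the results below was not tested. The wild-type arrays are all on slide 1, so genotype and slide cannot be told apart, while slides 2 and 3 each hold normal and polyp arrays of 2 mice.

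Polyps and Apc normal tissue were compared as groups, and the main fit did not pair the arrays of a mouse. In polyps, 5 of the 10 genes were higher (Cd44, Cd24a, Itga6, Itgb1 and Bmi1) and 1 was lower (Lgr4). Prom1, Epcam, Alcam and Itgb4 did not pass the test. The median difference of the 10 was 0.58, beside -0.06 for all genes tested. Since 45.5% of all genes passed the same test, a count of 6 in 10 is close to the background and says little of the group as such. Groups without overlap were also common. Of all genes tested, 45.1% separated polyps from Apc normal tissue and 56.7% from wild-type normal tissue, and each such separation below stands beside these shares. The genes are described one by one. The members did not go one way: Cd44 rose most, Itgb4 had the smallest difference and Lgr4 fell.

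**Figure D1:**
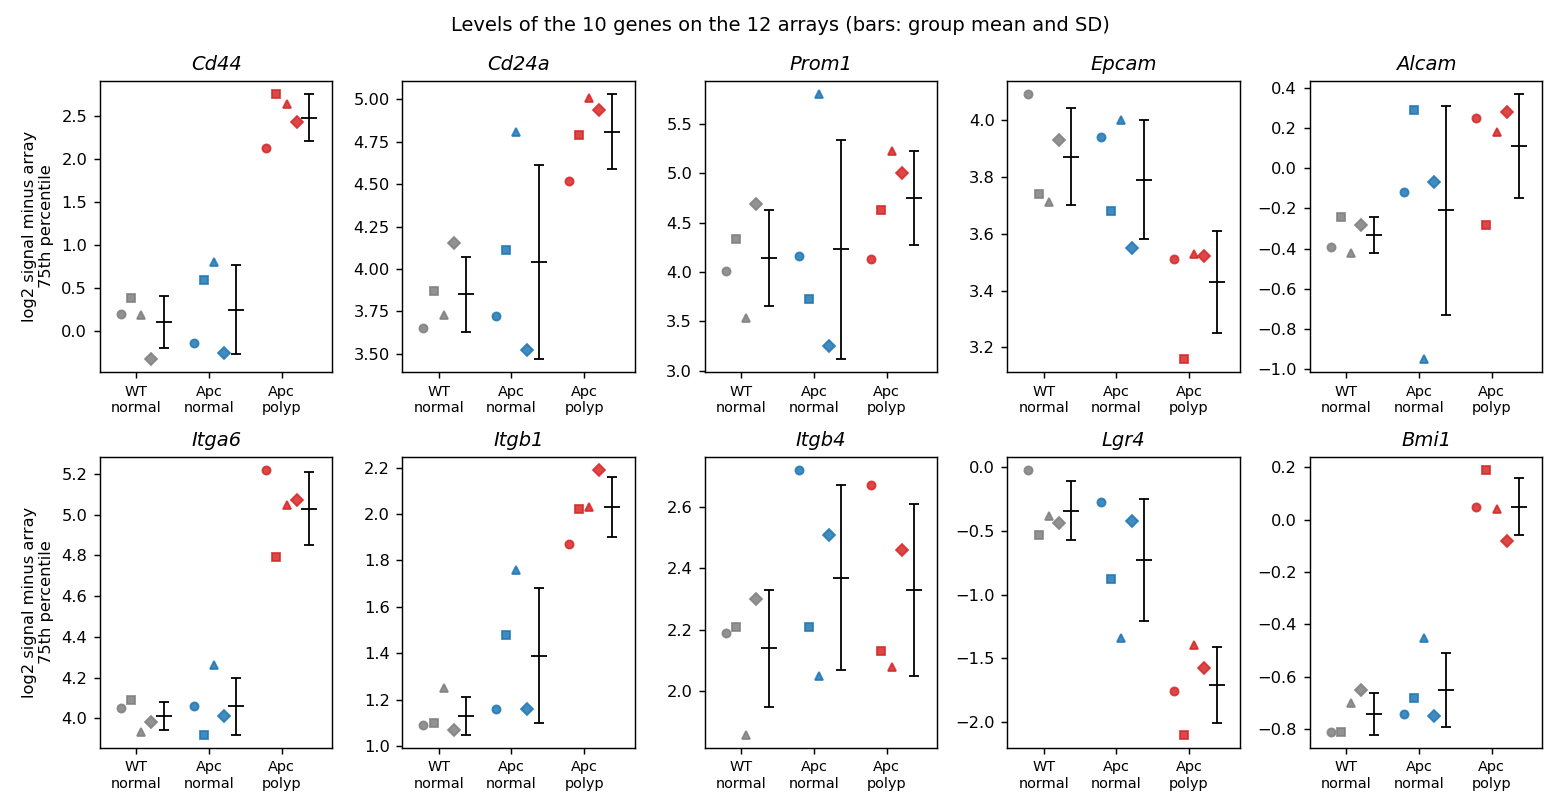
Level of each of the 10 genes (y axis: log2 signal minus the array's 75th percentile) on the 12 arrays, by group (x axis). Each point is 1 array, with 1 symbol per mouse shared by the Apc normal and Apc polyp groups (circle 103, square 106, triangle 107, diamond 110; the wild-type mice 102, 104, 105 and 108 follow the same order), and bars show the mean and SD of 4 arrays. Polyps stand clear of all normal arrays for Cd44, Itga6, Itgb1 and Bmi1 above and for Lgr4 and Epcam below, and overlap with normal arrays for the other 4 genes. Of all genes tested, 45.1% separated polyps from Apc normal tissue and 56.7% from wild-type normal tissue.

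Cd44, the hyaluronan receptor, had the largest rise of the 10. Its levels were 0.20, 0.38, 0.19 and -0.32 in wild-type normal tissue, -0.14, 0.59, 0.80 and -0.25 in Apc normal tissue of mice 103, 106, 107 and 110, and 2.13, 2.75, 2.64 and 2.43 in their polyps. Every polyp lay well above every normal array. Polyps were higher than Apc normal tissue by 2.24 ± 0.27 (4.71-fold, limma adjusted p = 0.000419, n = 4 and 4), and within mice the difference ran from 1.84 to 2.67. The difference was 2.22 on slide 2 and 2.26 on slide 3. Apc normal and wild-type normal tissue differed by 0.14 ± 0.27 (limma adjusted p = 0.838), less than the spread within either group.

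All 4 Cd44 probes rose in polyps, and those in the variable-exon region were dim in normal tissue. The 3′ one was near background in both normal groups, and the 5′ one in wild-type normal tissue. The 3′ probe of that region was well above background on 3 of the 4 Apc normal arrays and had levels of -5.76, -5.34, -4.50 and -5.75 there, against -2.28, -1.77, -2.08 and -2.02 in polyps. The lowest signal well above background on those normal arrays was -6.69 to -5.17, so its normal level holds background and its rise is an approximate value. The measured rise was 3.30 ± 0.28 (limma fitted on every probe, adjusted p = 0.000111), beside 2.24 for the distal probe. Within an array, its signal relative to the distal probe was -6.03 to -5.30 on the 8 normal arrays and -4.71 to -4.40 in polyps, without overlap, a measured difference of 1.06 between Apc normal tissue and polyps. The 5′ probe of the region was well above background on 4 of 4 Apc normal arrays, at -4.97, -4.55, -3.87 and -2.37, and stood at -1.90, -1.29, -1.49 and -1.54 in polyps, a rise of 2.38 ± 0.51 (adjusted p = 0.00592). Its ratio to the distal probe did not separate the groups (-5.91 to -2.13 on normal arrays and -4.13 to -3.97 in polyps), and the normal array of mouse 110 stood high for this probe alone. In mice 103, 106 and 107 the 5′ probe rose by more than the distal probe, and in mouse 110 by less. The 5′ probe rose by 3.77 ± 0.22 from wild-type normal tissue, beside 2.37 for the distal probe, and the mean ratio went from -5.44 to -4.04. Its wild-type mean was -5.32, and it was well above background on 3 of 4 arrays there. The lowest signal well above background on the wild-type arrays was -6.36 to -5.63, so this rise and this ratio are approximate too. The probe at the end of the coding sequence rose by 2.57 ± 0.29. The measured signal of the 3′ variable-region probe thus rose by more than that of the distal probe in 4 of 4 mice, and that of the 5′ probe in 3 of 4.

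**Figure D2:**
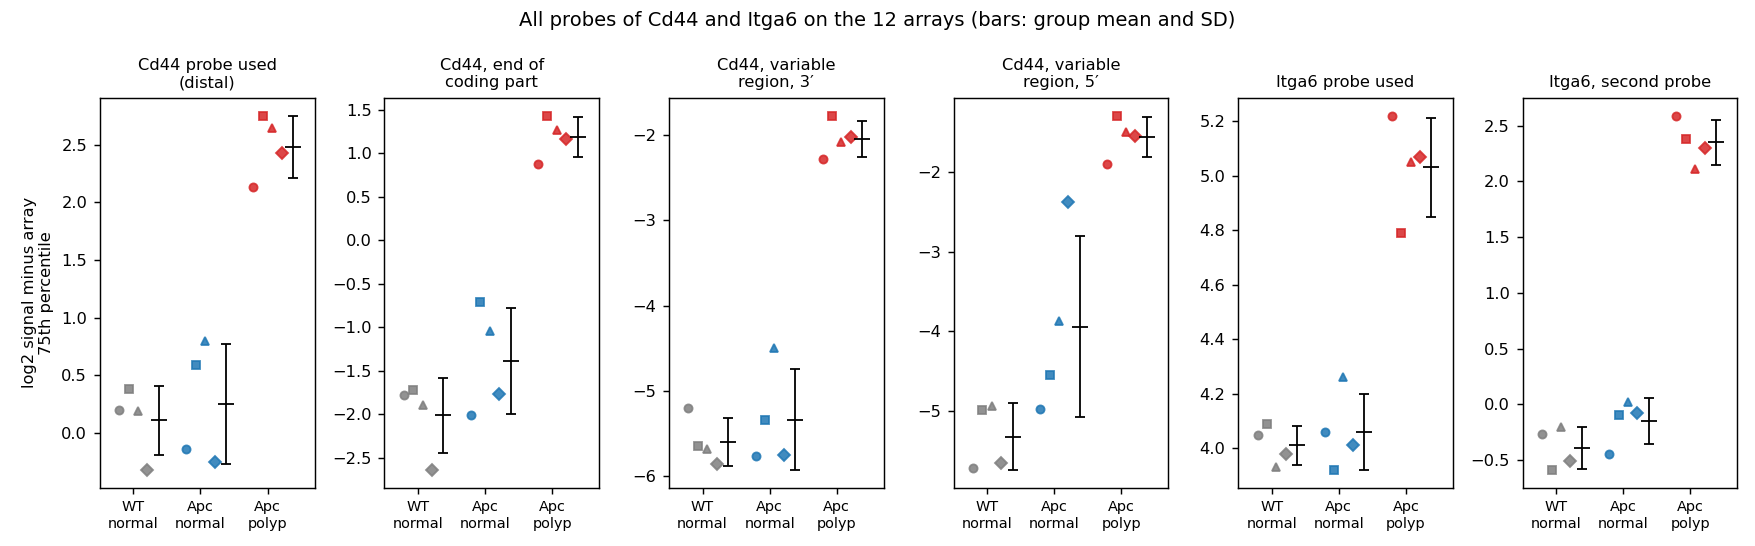
Levels of the 4 Cd44 and 2 Itga6 probes (y axis: log2 signal minus the array's 75th percentile) on the 12 arrays by group (x axis), with each point 1 array (symbols per mouse: circle 103, square 106, triangle 107, diamond 110) and bars the mean and SD of 4 arrays. Polyps lie above all normal arrays with every probe, by 3.30 for the 3′ variable-region probe of Cd44 and 2.5 for the second Itga6 probe against 2.24 and 0.97 for the probes used (differences between Apc polyp and Apc normal means).

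CD24, a small mucin-like glycoprotein of the cell surface, was higher in polyps by a margin at the threshold of the test. The Cd24a levels were 3.65 to 4.15 in wild-type normal tissue, 3.72, 4.11, 4.81 and 3.52 in Apc normal tissue, and 4.52, 4.79, 5.01 and 4.94 in polyps. The Apc normal array of mouse 107, at 4.81, lay within the range of polyps, so the groups overlap. Polyps were higher by 0.77 ± 0.27 (1.71-fold, limma adjusted p = 0.0498) and each mouse's polyp exceeded its own normal tissue, by 0.20 in mouse 107 and 0.67 to 1.42 in the others. Of 21 alternatives, 13 put the adjusted p above 0.05 and the highest was 0.35, within slide 3. The call was lost under 7 of the 8 omissions of 1 array (adjusted p up to 0.115). Without the normal array of mouse 107, the exception, it was 0.0043, and quantile normalization gave 1.10. Against wild-type normal tissue the rise was 0.96 ± 0.15 (adjusted p = 0.000734) and the groups did not overlap, as was so for 56.7% of all genes tested.

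Prominin-1, a protein of membrane protrusions that is known as CD133, varied more within Apc normal tissue than between groups. Prom1 levels were 4.01, 4.33, 3.53 and 4.69 in wild-type normal tissue, 4.16, 3.73, 5.80 and 3.25 in Apc normal tissue, and 4.13, 4.63, 5.23 and 5.0 in polyps. The highest of the 12 was the normal tissue of mouse 107. The difference of polyps from Apc normal tissue was 0.52 ± 0.53 (limma adjusted p = 0.457), with polyps higher in 2 mice and lower in 2. It became 1.04 (adjusted p = 0.0334) without that array. The other Prom1 probe, in another part of the transcript, gave 0.57 ± 0.62 (adjusted p = 0.482) with the same array on top at 2.48. Against wild-type normal tissue the difference was 0.60 ± 0.31 (adjusted p = 0.12), and it passed after quantile normalization, at 0.93 (adjusted p = 0.023).

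EpCAM, an adhesion protein of nearly all simple epithelia, served as the epithelial reference of the ratios below, and its difference in polyps was small. Epcam levels were 4.09, 3.74, 3.71 and 3.93 in wild-type normal tissue, 3.94, 3.68, 4.0 and 3.55 in Apc normal tissue, and 3.51, 3.16, 3.53 and 3.52 in polyps. No polyp reached a normal array, but 45.1% of all genes tested showed such a separation of polyps from Apc normal tissue, and polyp and normal tissue of mouse 110 differed by -0.03. The difference of -0.36 ± 0.14 did not pass (limma adjusted p = 0.0719). It passed without the normal array of mouse 110 (-0.44, adjusted p = 0.0436) and with all 12 arrays in 1 fit (adjusted p = 0.0445), and shrank to -0.14 with quantile normalization. Against wild-type normal tissue Epcam was lower by -0.44 ± 0.13 (adjusted p = 0.0168), which was lost with quantile normalization (-0.20, adjusted p = 0.161).

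ALCAM, known as CD166, an immunoglobulin-family adhesion protein and ligand of CD6, showed no called difference from Apc normal tissue. Its levels were -0.39, -0.24, -0.42 and -0.28 in wild-type normal tissue, -0.12, 0.29, -0.95 and -0.07 in Apc normal tissue, and 0.25, -0.28, 0.18 and 0.28 in polyps. The lowest of the 12 arrays was again the normal tissue of mouse 107. Polyps differed from Apc normal tissue by 0.32 ± 0.27 (limma adjusted p = 0.358), with a sign that changed between slides (-0.10 on slide 2, 0.74 on slide 3). Against wild-type normal tissue the difference of 0.44 ± 0.14 passed (adjusted p = 0.0218) although 1 polyp lay among the normal arrays, and 6 of 18 alternatives put it above 0.05.

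The laminin-binding integrins split by chain. Itga6, the α6 chain that pairs with β1 or β4, stood at 4.05, 4.09, 3.93 and 3.98 in wild-type normal tissue, at 4.06, 3.92, 4.26 and 4.01 in Apc normal tissue, and at 5.22, 4.79, 5.05 and 5.07 in polyps. The 8 normal arrays stayed close together and every polyp was above them. The rise was 0.97 ± 0.13 (1.96-fold, limma adjusted p = 0.000612), 0.79 to 1.16 within mice, and 1.02 and 0.93 on slides 2 and 3. The other Itga6 probe rose by more, from -0.45, -0.10, 0.02 and -0.08 in Apc normal tissue to 2.59, 2.38, 2.11 and 2.30 in polyps, or 2.5 ± 0.15 (adjusted p = 3.95e-05). Relative to the probe used, its signal was -4.68 to -4.01 on the normal arrays and -2.94 to -2.41 in polyps, a difference of 1.52 between polyps and Apc normal tissue with no overlap. The direction was the same with both probes and its size was not, so the 1.96-fold rise is that of the stretch which the probe used covers.

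Itgb1, the β1 chain shared by many integrins, rose by less. It was at 1.09, 1.10, 1.25 and 1.07 in wild-type normal tissue, at 1.16, 1.48, 1.76 and 1.16 in Apc normal tissue, and at 1.87, 2.02, 2.03 and 2.19 in polyps, with a narrow gap above the normal tissue of mouse 107. Polyps were higher by 0.64 ± 0.16 (1.56-fold, limma adjusted p = 0.0118), by 0.63 on slide 2 and 0.65 on slide 3. Its other probe gave 0.43 ± 0.18, which did not pass (adjusted p = 0.0783). Itgb4, the β4 chain of hemidesmosomes, was at 2.72, 2.21, 2.05 and 2.51 in Apc normal tissue and at 2.67, 2.13, 2.08 and 2.46 in polyps of the same mice. The polyp and the normal tissue of each mouse thus had nearly the same level, with differences of -0.08 to 0.04, and the mice differed from each other by more. The difference of means was -0.04 ± 0.19 (limma adjusted p = 0.893), and it was 0.09 with quantile normalization and 0.10 with normexp.

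LGR4 was the member that fell. Lgr4 levels were -0.02, -0.53, -0.38 and -0.44 in wild-type normal tissue, -0.27, -0.88, -1.34 and -0.42 in Apc normal tissue, and -1.76, -2.10, -1.40 and -1.58 in polyps. All polyps were below all normal arrays, the closest of which was again the normal tissue of mouse 107. Polyps were lower by -0.99 ± 0.26 (1.98-fold, limma adjusted p = 0.0154), by -1.16 to -1.49 in 3 mice and by -0.06 in mouse 107. On slide 3, which holds mouse 107, the difference was -0.61, and on slide 2 it was -1.36. Against wild-type normal tissue Lgr4 was lower by -1.37 ± 0.17 (2.58-fold, adjusted p = 0.000263).

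Bmi1, the Polycomb subunit also known as PCGF4, varied little within groups. It was at -0.81, -0.81, -0.70 and -0.65 in wild-type normal tissue, at -0.74, -0.68, -0.45 and -0.75 in Apc normal tissue, and at 0.05, 0.19, 0.04 and -0.08 in polyps. Every polyp was above every normal array. The rise was 0.70 ± 0.11 (1.63-fold, limma adjusted p = 0.00155), 0.48 to 0.87 within mice, and its other probe gave 0.56 ± 0.14 (adjusted p = 0.0118).

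Between the genotypes, in normal tissue only, 0 of the 10 genes passed the test, with 0.169% of all genes called, and 0 of them had an unadjusted p under 0.05 in limma. The differences ran from -0.38 ± 0.24 for Lgr4 to 0.26 ± 0.15 for Itgb1. Against wild-type normal tissue, where 60.2% of all genes were called, 27.4% higher and 32.8% lower, polyps were higher for 6 of the 10 (Cd44, Cd24a, Alcam, Itga6, Itgb1 and Bmi1) and lower for Epcam and Lgr4. The 2 comparisons of polyps share the polyp arrays, so they are no independent evidence of each other. Cd44 rose by 2.37 ± 0.19 there, Itga6 by 1.02 ± 0.10, Itgb1 by 0.90 ± 0.09 and Bmi1 by 0.79 ± 0.09. The wild-type arrays, all on slide 1, varied less than the Apc normal arrays, on slides 2 and 3, for 10 of the 10 genes (SD). How often this holds over all genes was not counted, and 1 Apc normal array, that of mouse 107, stood apart in most of these genes.

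**Figure D3:**
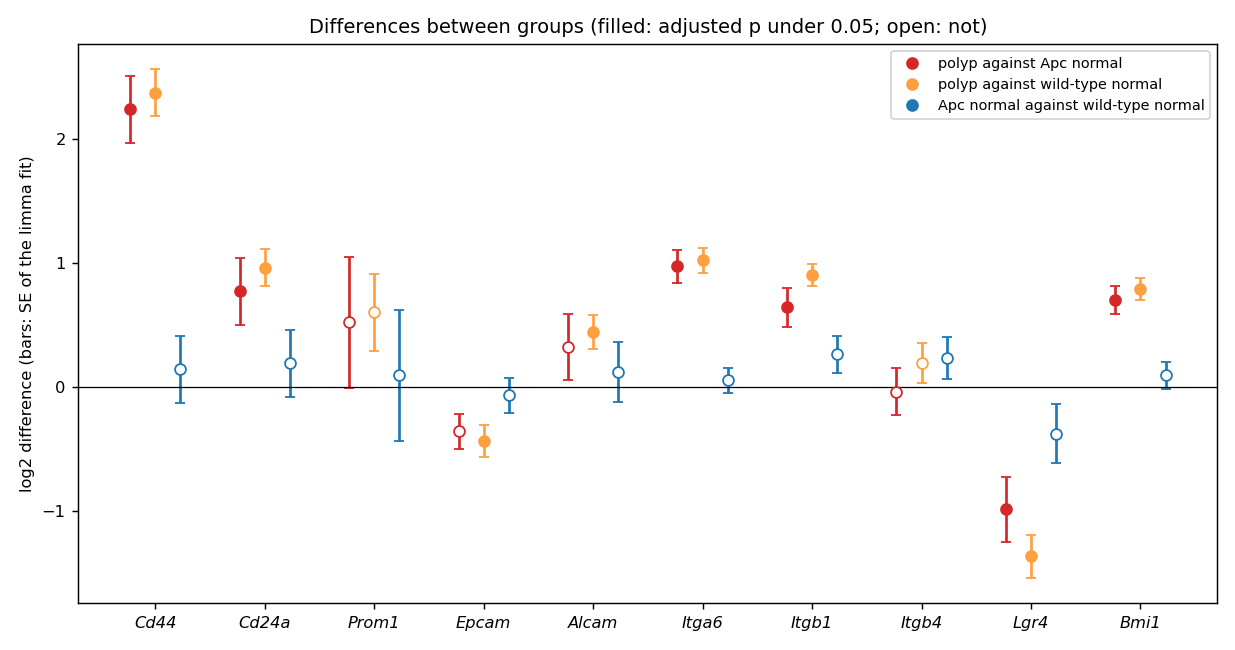
Log2 difference between groups (y axis) for each of the 10 genes (x axis) in the 3 comparisons, with bars for the standard error of the limma fit on 4 and 4 arrays and filled points where the adjusted p is under 0.05. Both comparisons of polyps give 2.24 and 2.37 for Cd44 and -0.99 and -1.37 for Lgr4, and no point of Apc normal against wild-type normal tissue is filled.

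The Apc normal array of mouse 107 stood apart in these genes. It was the farthest from its group mean for 8 of the 10, with a mean absolute deviation of 0.55, beside 0.11 to 0.32 on the other 11 arrays. Without it, 6 genes were higher and 1 was lower in polyps, Prom1 being the addition. The cause was not tested.

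The members moved together within groups only in part, as described by correlations of deviations from the group means over the 12 arrays, which share the weight of that 1 array. Cd24a and Prom1 varied together (r = 0.902), as did Cd24a and Itgb1 (r = 0.825). Cd44 went against Itgb4 (r = -0.805) and Bmi1 against Lgr4 (r = -0.789).

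Ratios within an array cancel what scales a whole array and show whether 2 genes changed unequally, without saying which is more abundant. Of the 13 ratios computed, 7 separated polyps from Apc normal tissue completely, as did 45.1% of all genes tested when taken singly. Those 7 reached 0.0286, the smallest p that an exact two-sided permutation test of 4 against 4 can give. Adjusted over the 13 they stand at 0.0531, so 0 passed after adjustment. The ratios to Epcam share that gene, and its own difference of -0.36 enters each of them, so they are not separate results. The ratio of Cd44 to Epcam was higher in polyps than in Apc normal tissue by 2.60 (6.06-fold, means -0.95 ± 0.41 and -3.55 ± 0.47, SD, n = 4), and the within-mouse values were 2.31 to 2.71. The ratio to Epcam was also higher for Cd24a (1.14), Itga6 (1.34), Itgb1 (1.0) and Bmi1 (1.07). For Prom1 (0.88, exact p = 0.143), Alcam (0.68, exact p = 0.0571), Itgb4 (0.33, exact p = 0.20) and Lgr4 (-0.62, exact p = 0.143) the values of the groups overlapped or did not reach the threshold.

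Among the integrins, the Itga6 to Itgb4 ratio was 1.34, 1.71, 2.21 and 1.5 in Apc normal tissue and 2.55, 2.66, 2.97 and 2.62 in polyps, 1.01 higher in polyps and higher in 4 of 4 mice (exact p = 0.0286, adjusted 0.0531). The ratio of Itga6 to Itgb1 differed by 0.33 (exact p = 0.143) with the probe used, and by 1.20 where the mean over each gene's probes was taken. The ratio of Itgb4 to Itgb1 fell within each mouse, by -0.24 to -1.08, but the groups overlapped (exact p = 0.114). Of these pairs, then, the α6 chain moved away from the β4 chain, and how far it moved from β1 depended on the probe.

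LGR4 and LGR5 are related receptors for the same R-spondins, and their genes went opposite ways. The Lgr4 to Lgr5 ratio was 1.25, 0.76, 0.33 and 1.10 in Apc normal tissue and -3.47, -3.21, -3.25 and -3.10 in polyps, a fall by 4.11 (17.3-fold, exact p = 0.0286, adjusted 0.0531). Most of this was the rise of Lgr5, a stem cell marker and Wnt target, by 3.13 ± 0.16 (limma adjusted p = 2.58e-05). With the mean over Lgr5's probes that rise was 2.16. In wild-type normal tissue the ratio was 1.63, 0.85, 0.53 and 1.12, within the range of Apc normal tissue or close to it.

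**Figure D4:**
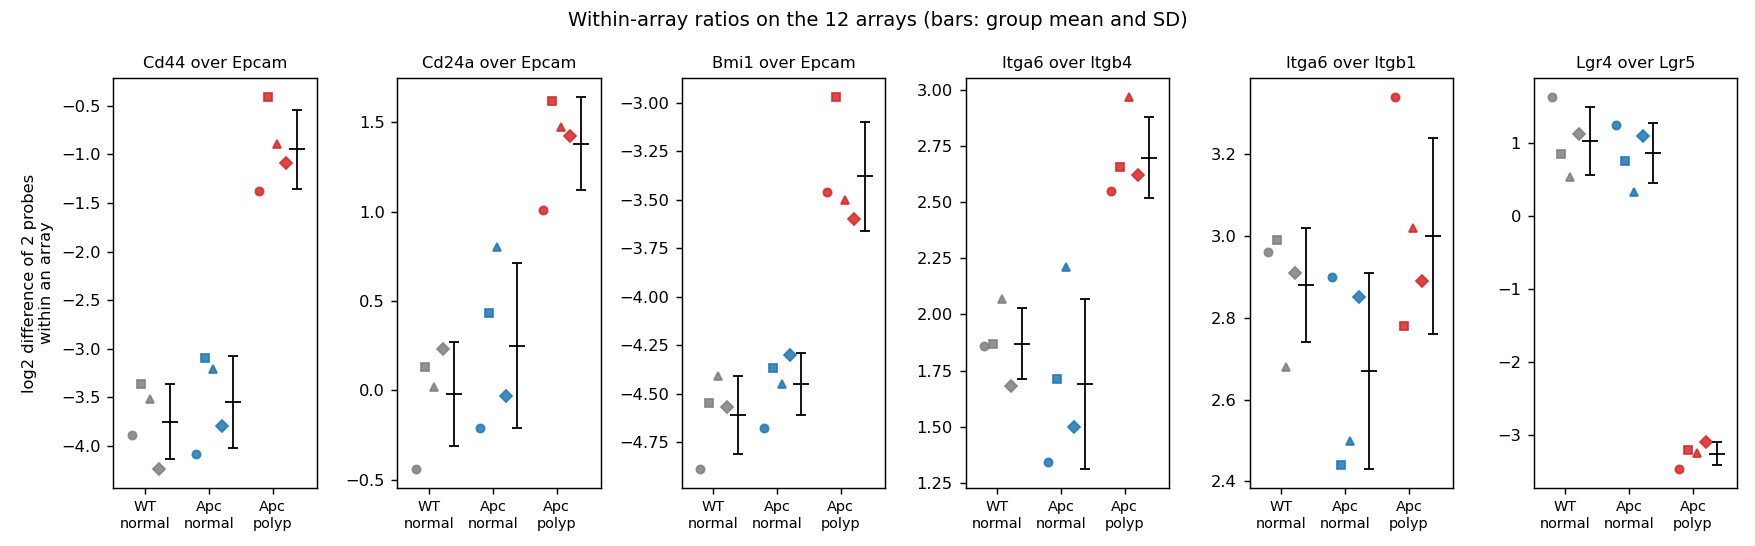
Within-array ratios of 2 genes (y axis: difference of their log2 signals) on the 12 arrays by group (x axis), each point 1 array (symbols per mouse: circle 103, square 106, triangle 107, diamond 110), bars the mean and SD of 4 arrays. Polyps are separate from all normal arrays for 5 of the 6 ratios shown, by -4.11 for Lgr4 over Lgr5 and 2.60 for Cd44 over Epcam (Apc polyp minus Apc normal), and overlap for Itga6 over Itgb1. Of all genes tested singly, 45.1% separated polyps from Apc normal tissue.

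Genes of the systems in which these proteins work were taken from lists and counted by the same test, in polyps against Apc normal tissue. Of all genes tested, 45.5% were called there, 20.5% higher and 24.9% lower. The counts of every list below stand beside those shares and say little of a list as such. Of 14 tested hyaluronan, ERM and CD44 partner genes, 7 were higher and 3 were lower (median 0.52). Spp1, which encodes the CD44 ligand osteopontin, stood in no Apc normal array well above background, and in polyps its signal was at least 139-fold higher (limma adjusted p = 8.69e-06), where the polyps' mean is set against the lowest signal well above background on the dim arrays. That bound holds for the processed signal: the fitted difference of 9.11 became 5.42 with normexp, which is less than the bound. Mmp14, a membrane-bound protease that can cleave CD44, rose by 1.95 ± 0.16, and Hyal1, a hyaluronidase, by 1.46 ± 0.20. Ezr, which encodes ezrin, the cytoskeletal linker of CD44 in epithelium, fell by 1.21 ± 0.17 on the log2 scale.

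Of 9 tested EpCAM and prominin partners, 2 were higher and 4 were lower (median -0.40), or 3 and 3 with quantile normalization (median -0.18) and with normexp (median -0.15). Prom2, the paralogue of Prom1, was at least 4.83-fold higher on the processed signal (limma adjusted p = 0.000344). Its fitted difference of 4.01 became 2.04 with the mean over its probes and 1.51 with normexp, both less than that bound and both called. The difference of Prom1 itself (0.52) did not pass. Spint2, a protease inhibitor that protects EpCAM from cleavage, fell by 1.18 ± 0.16. Of the 5 tested ligands of ALCAM and CD24, Selp, the gene of P-selectin, rose by 2.42 ± 0.46, and L1cam (-0.99 ± 0.17) and Nrcam (-1.11 ± 0.23) were lower. Cd6, the gene of the lymphocyte ligand of ALCAM, had a difference of 0.71 ± 0.44 that did not pass. Another of its probes gave -0.27, so its direction is not settled.

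Around the integrins, 4 of 22 tested subunits were higher and 3 lower (median 0.20), and 6 of 11 laminin chains were higher and 2 lower (median 0.66). Of the subunits, Itga7 (-2.29 ± 0.14) and Itga8 (-3.44 ± 0.29), both chains that smooth muscle is known for, were lower beside the 10 of 10 lower smooth muscle markers. Itgam, the αM chain of myeloid cells, was lower by -1.91 ± 0.17 with the probe used and higher by 1.29 with another of its probes, so its direction is not settled. Among the laminins, Lama5 (2.52 ± 0.11) and Lama3 (1.56 ± 0.21) rose, chains of the epithelial basement membrane that integrins α6β1 and α6β4 bind, while Lama2, a chain of muscle basement membrane, fell by 1.91 ± 0.30. Of 12 hemidesmosome and integrin adaptor genes, 1 was higher and 5 were lower (median -0.22), or 1 and 3 with mouse as a block and 2 and 3 without the normal array of mouse 107; 3 were lower also without mouse 110's normal tissue, or without the polyps of mice 106 or 107. Fermt1, the gene of the epithelial integrin activator kindlin-1, rose by 0.80 ± 0.13. Plec (-0.81 ± 0.17) and Dst (-1.61 ± 0.34), whose products link β4 integrin to keratin in epithelium, fell, also beside the lower smooth muscle markers. Which cells of the tissue this fall lies in was not tested.

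Of the 6 tested genes of the R-spondin and Lgr receptor system other than Lgr4, 3 were higher and 2 were lower, or 4 and 2 with the mean over a gene's probes. Besides Lgr5, Rnf43 (2.23 ± 0.24, limma adjusted p = 0.000266) and Znrf3 (1.55 ± 0.48, adjusted p = 0.03), the ligases that remove Wnt receptors and that R-spondins inhibit, were higher. Znrf3 lost the call under 5 of the 8 omissions of 1 array. Of the ligands, Rspo3 was lower by -2.73 ± 0.57 (adjusted p = 0.00562) and Rspo1 by -2.31 ± 0.73 (adjusted p = 0.0322, 0.0612 with mouse as a block, lost under 6 of the 8 omissions, and -1.02 with normexp), while Rspo2 and Rspo4 were not well above background in either group. Lgr6 had a difference of 0.56 ± 0.46 that did not pass, and another of its probes gave 6.35. With the mean over its probes the difference was 3.45 and passed (limma adjusted p = 0.000149). The receptor Lgr4 thus fell beside 2 ligands, while Lgr5 and both ligases rose, and the call of Lgr6 depended on the probe.

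Of 17 Polycomb repressive complex 1 genes other than Bmi1, 5 were higher and 1 was lower (median 0.45), or 3 higher when either mouse 107's normal tissue or the polyps of mice 103, 106 or 110 were left out. With normexp the median was 0.25. Pcgf6, a paralogue of Bmi1, rose by 0.95 ± 0.13 and Cbx6 by 1.24 ± 0.24, whereas Pcgf5, another paralogue, fell by 0.71 ± 0.11 on the log2 scale. Those of the catalytic subunits, Ring1 (-0.30 ± 0.22) and Rnf2 (0.21 ± 0.14), did not pass.

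**Figure D5:**
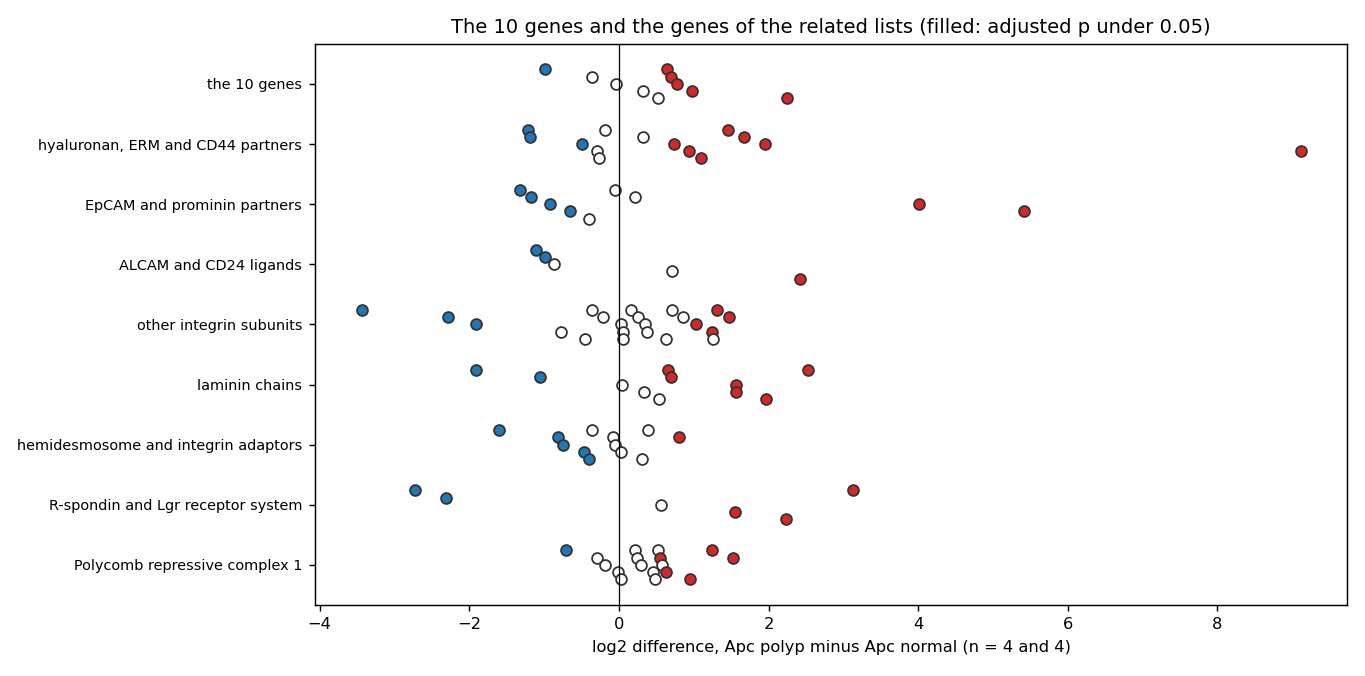
Log2 difference between Apc polyp and Apc normal tissue (x axis, n = 4 and 4) for the 10 genes and for each tested gene of 8 related lists (y axis), 1 point per gene, filled where the limma adjusted p is under 0.05. The points at 9.11 (Spp1) and 4.01 (Prom2) are fitted values against arrays on which the probe was not well above background, and each list holds filled points on both sides of 0.

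Likeness over all 12 arrays was used only to describe the patterns, and it carries the group difference itself. Among 15116 other tested genes with a current symbol, Cd44 was most like Psmd7, Thbs1 and Bub3 (r = 0.992, 0.991 and 0.99). The Bmi1 pattern was nearest to Spats2, Cstf3 and Pla2g12a (r = 0.994, 0.988 and 0.988), although the deviations from group means of those genes went against those of Bmi1 (r = -0.383, -0.128 and -0.618), so that the likeness lies in the difference between groups. For Itga6 the nearest were Ccdc141, Niban2 and Dock11 (r = 0.98, 0.98 and 0.978) and for Itgb1 Taf9, Smim3 and Hilpda (r = 0.981, 0.976 and 0.974). Within groups the Itgb1 neighbours gave r = -0.403, 0.537 and 0.839. For Lgr4 they were Ptprj, Klhl5 and Sspo (r = 0.982, 0.98 and 0.978), Klhl5 also within groups (r = 0.96). Cd24a was nearest to Sccpdh, Commd3 and Pla2g4c (r = 0.967, 0.959 and 0.958) and Epcam to Galnt6, Ggact and Xk (r = 0.955, 0.944 and 0.943). Within groups these gave r = 0.311, 0.612 and -0.252 with Cd24a, and 0.745, -0.815 and -0.247 with Epcam. Prom1 was nearest to Rpl22l1, Proc and Lekr1 (r = 0.94, 0.904 and 0.9), the last 2 also within groups (r = 0.897 and 0.91). Among the nearest to Alcam were Cma1 and Vsig1 (r = 0.95 and 0.911), which gave r = -0.0511 and -0.217 within groups. Itgb4, whose groups did not differ, had the weakest neighbours, Hnrnpd, Rbmx and Usp43 (r = 0.803, 0.796 and 0.782, and within groups 0.831, -0.337 and 0.636).

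Promoter windows of 300 bases, from 250 before to 50 after the start site, were taken from RefSeq in build GRCm38.p6 and matched 7 of the 10 genes, with 2 windows for Prom1. Those of Cd44 and Bmi1, which rose, and of Lgr4, which fell, are shown so that their letters can be compared, 5′ to 3′ on the strand of the gene. Capitals mark GGGCGG, the GC box, or CACGTG, an E-box, on either strand. They lie at chr2:102901616-102901915 (minus strand), chr2:18676768-18677067 (plus strand) and chr2:109917397-109917696 (plus strand).
Cd44 promoter: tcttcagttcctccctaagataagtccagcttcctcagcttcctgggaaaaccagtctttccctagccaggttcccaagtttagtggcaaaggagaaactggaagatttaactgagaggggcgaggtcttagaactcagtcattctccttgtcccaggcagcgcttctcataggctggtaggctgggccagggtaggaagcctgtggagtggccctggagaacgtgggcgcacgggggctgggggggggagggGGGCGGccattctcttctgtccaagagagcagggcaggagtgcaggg
Bmi1 promoter: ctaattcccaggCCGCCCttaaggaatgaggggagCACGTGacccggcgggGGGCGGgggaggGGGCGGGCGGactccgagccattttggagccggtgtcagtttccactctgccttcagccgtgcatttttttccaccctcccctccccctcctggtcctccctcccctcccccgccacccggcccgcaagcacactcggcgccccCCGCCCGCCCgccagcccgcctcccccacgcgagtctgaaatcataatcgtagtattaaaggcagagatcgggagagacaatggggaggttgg
Lgr4 promoter: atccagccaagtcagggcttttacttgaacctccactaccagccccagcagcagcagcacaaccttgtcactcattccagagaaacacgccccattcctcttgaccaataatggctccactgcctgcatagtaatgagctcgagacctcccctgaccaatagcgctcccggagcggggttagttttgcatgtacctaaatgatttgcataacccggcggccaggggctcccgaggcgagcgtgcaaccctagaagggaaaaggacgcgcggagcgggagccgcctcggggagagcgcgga
The TCF/LEF core, searched as CTTTGAT and CTTTGTT on both strands, was in 0 of the 8 windows, and it is in 3.73% and 5.85% of all 32851 windows. The GC box was in 6 of the 8 windows, against 35.7% of all, with 6 matches for Bmi1, some of which overlap each other, 1 for Cd44 and 0 for Lgr4. The E-box was in the windows of Bmi1 and Epcam, against 7.15% of all. No match overlapped a match of another motif. The windows of Cd44, Bmi1 and Lgr4 have 58.0%, 66.3% and 58.3% G and C, beside a median of 52.7%. These are matches of letters in a short window.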

How the data were processed

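The members and gene lists were chosen with earlier results of these data known. Per the labels' protocols, total RNA was column-purified, amplified and Cy3-labelled. The deposited scanner files hold spot intensity, background-subtracted and linear, written by Agilent Feature Extraction 10.7.3.1 (per headers and the submitters' processing notes), with mm9 coordinates. The deposited value table holds a linear ratio: 99.82% to 99.87% of each array's entries were within 1% of scanner signal over a constant, with medians of 0.9999 to 1 by column and without centring by gene; its making is not stated.

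After removal of control spots and of 1403 outlier spots, log2 intensity was averaged per probe and set relative to each array's 75th percentile. Among 39429 probes, 27508 were named by accession, 3544 by symbol and 404 by synonym through a RefSeq table of GRCm38.p6, used for names alone; the file's own name was kept for 7973. The probe with the highest mean stood for a gene. A gene was tested if well above background throughout 1 or more groups, which 20084 were, in limma 3.58.1 (R 4.3.3; lmFit, eBayes, two-sided) on the 8 arrays of each comparison; the procedure was tested on simulated data. The number of arrays limits the precision. Named beside the 10 genes are, per list, the 3 with the smallest p, Lgr5, the R-spondins, Rnf43 and Znrf3, and the 3 genes most like each member; Ezr, Cd6, Lgr6, Ring1 and Rnf2 were added after their values were seen, and some genes that this rule names are not reported here. Mouse numbers pair normal tissue and polyps of the same animal, and deviations of the same mouse correlated at 0.455, 0.17, 0.143 and 0.283. Normal tissue and polyps of different mice gave -0.329 to 0.193, which overlaps those values. Both arrays of a mouse also share a slide. Alternatives were scaling, filters, probe choice, blocks for mouse or slide, single slides and leaving out each array; the fit on every probe was chosen after seeing the data.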

Additional observations from a re-analysis of the deposited data

Results flagged for a closer look

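Within groups of 4 arrays, 90 sets of values were screened for an array far from the other 3, which chance gives in about 1 of 20 sets, and 2 stood out. The Epcam level in the polyp of mouse 106 was 3.16, against 3.51 to 3.53 in the other 3 polyps. The Itgb1 level in wild-type mouse 105 was 1.25, against 1.07 to 1.10 in the other 3 wild-type mice. Neither was tested further.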

How the results depend on the processing

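Of the members called in polyps against Apc normal tissue, Cd44, Itga6, Itgb1, Lgr4 and Bmi1 kept direction and call in every alternative run except those of a single slide. Cd24a did not, as given above. These runs took the probe used or the mean over a gene's probes. The other Itgb1 probe, taken alone, did not pass (0.43 ± 0.18, limma adjusted p = 0.0783). With only 2 against 2 arrays, slide 2 called 3466 genes, 1 of them a member (Cd44), and slide 3 called 1902 genes and 0 members; the fewer arrays are part of how these were made. With mouse number as replicate block, 9322 genes and 6 of the 10 members were called, and no member's call changed; of the other named genes it ended that of Rspo1. For the ratios, the within-mouse sign-flip test of 4 pairs cannot go below 0.125. The slide as a fixed block ended the call of Cd24a (adjusted p = 0.0561).

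Values that changed sign were all of differences that did not pass: Itgb4 in polyps against Apc normal tissue was 0.09 with quantile normalization, 0.10 with normexp and -0.15 to 0.08 when 1 array was left out, and Alcam was -0.10 on slide 2. In Apc normal against wild-type normal tissue, leaving out 1 array gave -0.05 to 0.30 for Cd44, -0.06 to 0.36 for Cd24a, -0.43 to 0.42 for Prom1, -0.14 to 0.01 for Epcam, -0.05 to 0.37 for Alcam and -0.02 to 0.09 for Itga6.

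The count of all genes called between the genotypes depended on the choice: 4 with normexp, 2 with no filter on dim probes, 226 with all 12 arrays in 1 fit, 814 with slide as a random block and 2 to 530 when 1 array was left out (530 without the Apc normal array of mouse 103), but members called stayed at 0. The random block has a correlation of -0.0816. The cause was not tested.

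Of the ratios, 0 passed after adjustment, and 8 did with normexp and with the mean over a gene's probes, where Itga6 over Itgb1 was 0.59 and 1.20. Leaving out 1 array gave 0 to 8 ratios, with 8 where either mouse 106 or mouse 107 lost its normal array. The ranges then were 0.89 to 1.18 for Itga6 over Itgb4, 0.98 to 1.32 for Cd24a over Epcam, 0.37 to 0.89 for Alcam over Epcam and -0.90 to -0.44 for Lgr4 over Epcam. Of all genes called in polyps against Apc normal tissue, 45.1% were higher, and 51.7% with quantile normalization. The arrays measure signal over background, and dim probes, such as those of the Cd44 variable region in normal tissue, are bounded by it. For partner genes at a low level, normexp gave smaller differences than the main values: -1.92 for Itga8, -0.27 for Nrcam, -1.77 for Rspo3, 1.64 for Selp, 1.51 for Prom2 and 5.42 for Spp1.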
